A study of Mus musculus with 9 samples.

Results

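The genes described here encode the SR proteins, the hnRNP proteins and the core proteins of the small nuclear ribonucleoproteins (snRNPs) with the SF3a and SF3b complexes. They were taken as every mRNA-type row whose symbol starts with Srsf, Hnrnp, Snrp, Sf3a or Sf3b. The rule found 53 of the 18984 genes in the files: 11 Srsf, 21 Hnrnp, 12 Snrp, 3 Sf3a and 6 Sf3b genes. Of these, 51 reached 1 FPKM (fragment number corrected for the length of the transcript and the size of the library) in at least 3 of the 9 libraries and were tested. Srsf12 and Hnrnpa1l2-ps2 lay below that level, at no more than 0.15 and 0.28 FPKM in any library, and were not tested. The rule uses names and not values, but it was chosen with earlier results of these data known.

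SR proteins bind exons through RNA recognition motifs and recruit the splicing machinery through a tail rich in arginine and serine. HnRNP proteins coat nascent transcripts, often oppose SR proteins at splice sites, and also act in export, stability and translation of mRNA. The Sm proteins form a ring around the small nuclear RNAs, and SF3a and SF3b are the parts of the U2 snRNP that hold it at the branch point of an intron. Most of these proteins are made in most cell types, and many SR and hnRNP genes hold back their own expression by splicing their transcripts into forms that are degraded.

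RNA was measured in whole lungs of C57BL/6 mice, taken 24 hours after an intratracheal dose of hyphal fragments, of conidia or of normal saline (control), with 3 libraries in each group. Hyphae are the filamentous form of the mould Aspergillus fumigatus, conidia its airborne spores, and the series title calls the mice immunocompetent. Poly(A) RNA was sequenced, and the deposited values are FPKM per gene. Nothing in the labels states that the 3 libraries of a group are 3 animals. The p-values therefore reflect the spread among these libraries alone, and that spread could be technical.

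Among the members, Srsf5 and Sf3b1 had the largest rises and Srsf1 and Srsf9 the largest falls in lungs given hyphae after rescaling (values below), and their promoters are shown so that genes with opposite changes can be compared. Each is the 250 bases before the start of the gene in RefSeq, build GRCm38.p6, written 5′ to 3′ on the strand of the gene. Capitals mark the GC box GGGCGG and the ETS core CCGGAAG, searched on both strands. In the Srsf5 sequence the last GC box and the last ETS core overlap. The windows are chr12:80945249-80945498 on the plus strand for Srsf5, chr1:55027479-55027728 on the minus strand for Sf3b1, chr11:88047123-88047372 on the plus strand for Srsf1 and chr5:115326927-115327176 on the plus strand for Srsf9.
Srsf5: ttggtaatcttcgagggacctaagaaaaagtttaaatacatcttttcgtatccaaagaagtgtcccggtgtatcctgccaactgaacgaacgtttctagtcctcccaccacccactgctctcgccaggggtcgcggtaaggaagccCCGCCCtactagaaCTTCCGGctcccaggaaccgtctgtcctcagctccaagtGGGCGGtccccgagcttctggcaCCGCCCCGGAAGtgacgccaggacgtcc
Sf3b1: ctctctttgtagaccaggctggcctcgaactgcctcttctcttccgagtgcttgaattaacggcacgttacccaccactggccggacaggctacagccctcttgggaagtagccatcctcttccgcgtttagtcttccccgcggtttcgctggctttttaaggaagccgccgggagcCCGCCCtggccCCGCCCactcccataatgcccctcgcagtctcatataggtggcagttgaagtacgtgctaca
Srsf1: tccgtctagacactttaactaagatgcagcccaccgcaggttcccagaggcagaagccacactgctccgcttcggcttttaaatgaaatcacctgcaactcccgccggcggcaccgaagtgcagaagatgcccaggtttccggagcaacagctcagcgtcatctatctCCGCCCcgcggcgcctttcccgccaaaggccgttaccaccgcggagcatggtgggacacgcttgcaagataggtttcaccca
Srsf9: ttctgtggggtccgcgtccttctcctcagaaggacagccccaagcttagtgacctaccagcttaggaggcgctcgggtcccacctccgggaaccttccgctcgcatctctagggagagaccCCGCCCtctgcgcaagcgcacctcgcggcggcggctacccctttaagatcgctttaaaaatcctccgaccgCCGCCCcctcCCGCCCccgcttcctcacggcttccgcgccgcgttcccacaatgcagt
The Srsf5 window held 3 GC boxes and 2 ETS cores. The Sf3b1 window held 2 GC boxes, the Srsf1 window 1 and the Srsf9 window 3, none with the ETS core. RefSeq promoters were at hand for 47 of the 53 members, 64 promoters in all. The ETS core was in 29.7% of them, in 12.4% of the 13909 promoters matched to tested genes and in 6.9% of all 32851 promoters of this length. The GC box was in 65.6% of member promoters, against 55.0% of those of tested genes and 32.7% of all. The CCAAT box (CCAAT) was in 43.8%, against 34.5% and 33.8%, the TATA box (TATAAA) in 10.9%, against 7.0% and 12.4%, and the cAMP response element (TGACGTCA) in 3.1%, against 2.4% and 1.5%. These shares describe letters in the window and not binding, and a pair of promoters of the same gene are not independent.

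The median tested gene was lower in the hyphae libraries, at 8.01 to 8.8 FPKM. It stood at 10.3 to 11.2 FPKM in conidia libraries and 11.0 to 11.5 FPKM in control libraries. Every comparison is therefore given as deposited and again with each library divided by its median-of-ratios factor, called rescaled here. That factor was 0.805 to 0.893 in hyphae libraries, 0.988 to 1.12 in conidia libraries and 1.11 to 1.16 in control libraries. The log2 difference of the median gene between hyphae and control was −0.37 as deposited and 0.00 after rescaling, and rescaling places it there by construction. Summed FPKM of 19 neutrophil markers was 1467 to 8699 in hyphae libraries, 2139 to 12820 in conidia libraries and 326 to 413 in control libraries, with Mpo, Elane and Ly6g at 0 in at least 1 library. Against control, 12 of 17 tested neutrophil markers rose in hyphae libraries under both scalings. Of 12 ciliated cell markers 12 fell as deposited and 11 after rescaling, and of 10 B cell markers 9 and 5 fell. Hyphae replicate 3 and control replicate 1 stood apart in cardiac markers, at 2473 and 1716 FPKM against 123 to 580 in the other libraries. They did so in adipose markers as well, at 387 and 859 FPKM against 9.74 to 193. The part of these shifts in the results below was not tested, and in whole lung fewer cells of a type and less RNA per cell cannot be told apart.

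The members were abundant. The mean FPKM over the 9 libraries put 49 of the 51 tested members above the median of all tested genes. Srsf5 was the most abundant, at 364 FPKM on average, followed by Hnrnpk at 188 and Hnrnpa2b1 at 161. Snrpn, which encodes a variant of the SmB protein best known from brain, and Sf3a1 were lowest among the tested members, at 8.01 and 10.4 FPKM. Together the members made up 0.662 to 0.702% of summed FPKM in hyphae libraries, 0.638 to 0.666% in conidia libraries and 0.626 to 0.689% in control libraries, so these shares overlapped between hyphae and control. Hnrnpa1, Hnrnpa3, Snrpb with Snrpn and several small Sm genes have close copies in the genome. Their reads could be split between copies in a way that the files do not show.

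Lungs given hyphae differed from control lungs in the balance of these genes, with Srsf5, Srsf11 and Sf3b1 higher and Srsf1, Srsf9 and Hnrnpu lower. As deposited, 30 of 51 members were called at an adjusted p under 0.05 in limma (9 higher and 21 lower), while 64.9% of all genes tested were called. By direction, 14.9% of all genes were called higher and 50% lower. After rescaling, 31 members were called (25 higher and 6 lower), and 59.3% of all genes, 30% higher and 29.3% lower. The overall share of called members was thus near that of all genes under both scalings. As deposited, all hyphae libraries lay above all control libraries in 15 members and below them in 22. Of the 13761 genes tested, 2378 lay above and 7350 below. After rescaling the counts were 28 and 8 members, and 4682 and 4472 genes. Groups that did not overlap were thus common among all genes. The median log2 difference of the members was −0.19 as deposited and 0.24 after rescaling, against −0.37 and 0.00 for all genes tested.

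Whether a member was called depended in many cases on the scaling. Of the members, 9 rose under both scalings: Srsf5, Srsf11, Hnrnpa0, Hnrnpd, Hnrnpr, Snrpb2, Sf3b1, Sf3b4 and Sf3b6. A further 6 fell under both: Srsf1, Srsf9, Srsf10, Hnrnpu, Hnrnpa2b1 and Sf3a1. Another 15 were called lower only as deposited, with log2 differences between −0.65 and −0.28, and 16 were called higher only after rescaling, between 0.30 and 0.72. Hnrnpa3, Hnrnpl, Snrpg, Snrpn and Sf3b2 were not called under either scaling. No member was called in opposite directions, but rescaling moved the median gene from −0.37 to 0.00, so opposite calls could hardly arise. The share of all genes called under both scalings was not counted. It can be at most 14.9% for higher calls, the share as deposited, and 29.3% for lower calls, the share after rescaling. For the members the shares under both scalings were 17.6% higher and 11.8% lower. Leaving out hyphae replicate 3 gave 9 higher and 22 lower members as deposited, and leaving out control replicate 1 gave 8 and 21. Over all genes these fits gave 1863 higher and 6317 lower, and 1757 and 6196, against 2045 and 6886 with every library.

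**Figure D1:**
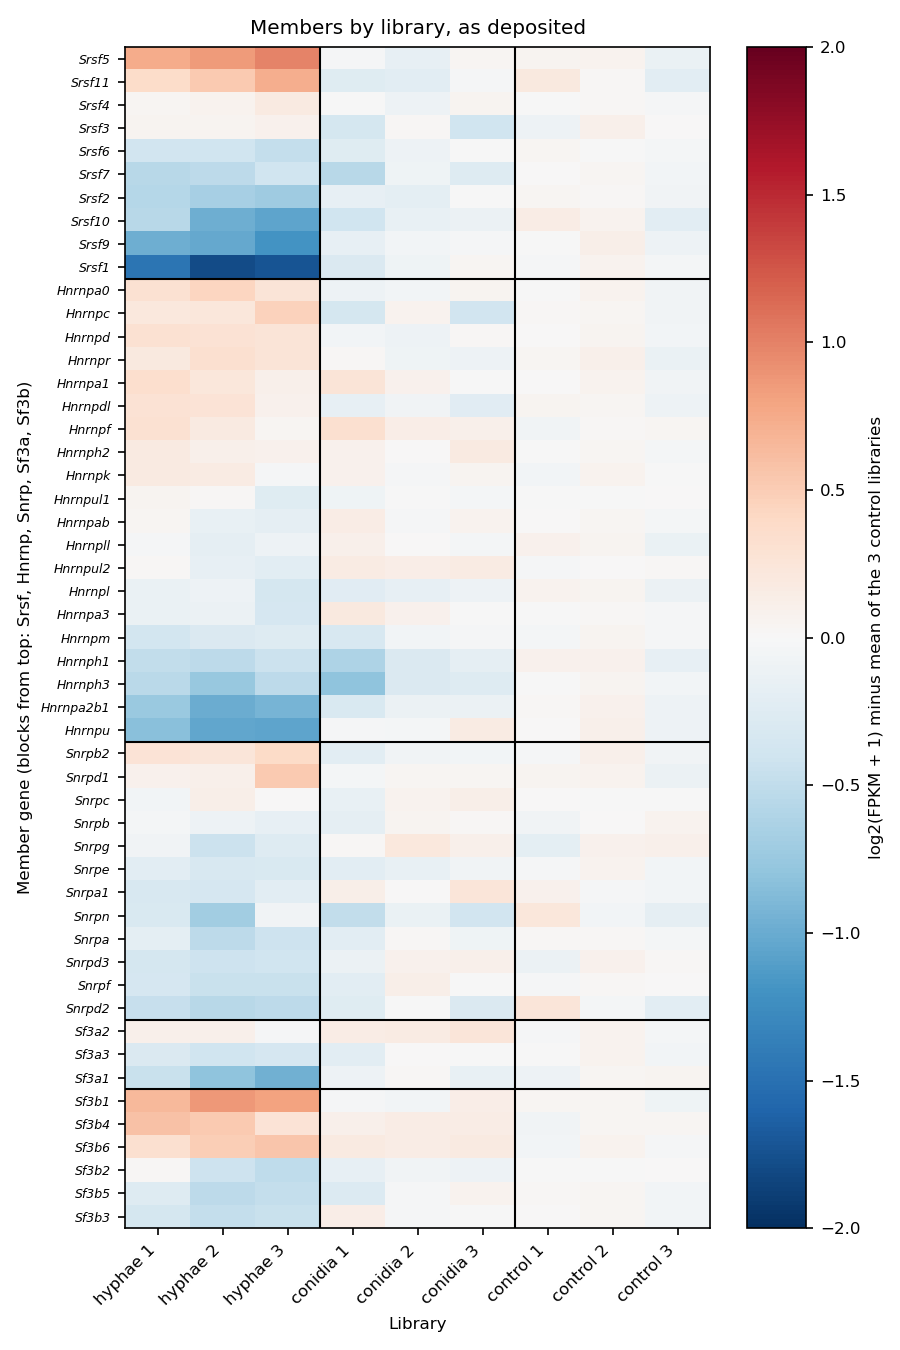
Heat map of the 51 tested members (rows, in blocks by family, ordered by the hyphae minus control difference) in the 9 libraries (columns), as log2(FPKM + 1) minus the mean of the 3 control libraries, as deposited. The 3 hyphae columns carry the strongest colours, red at Srsf5 and Sf3b1 and blue at Srsf1 and Srsf9, while the conidia and control columns are paler, with Hnrnph3 in conidia replicate 1 the bluest cell among them.

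**Figure D2:**
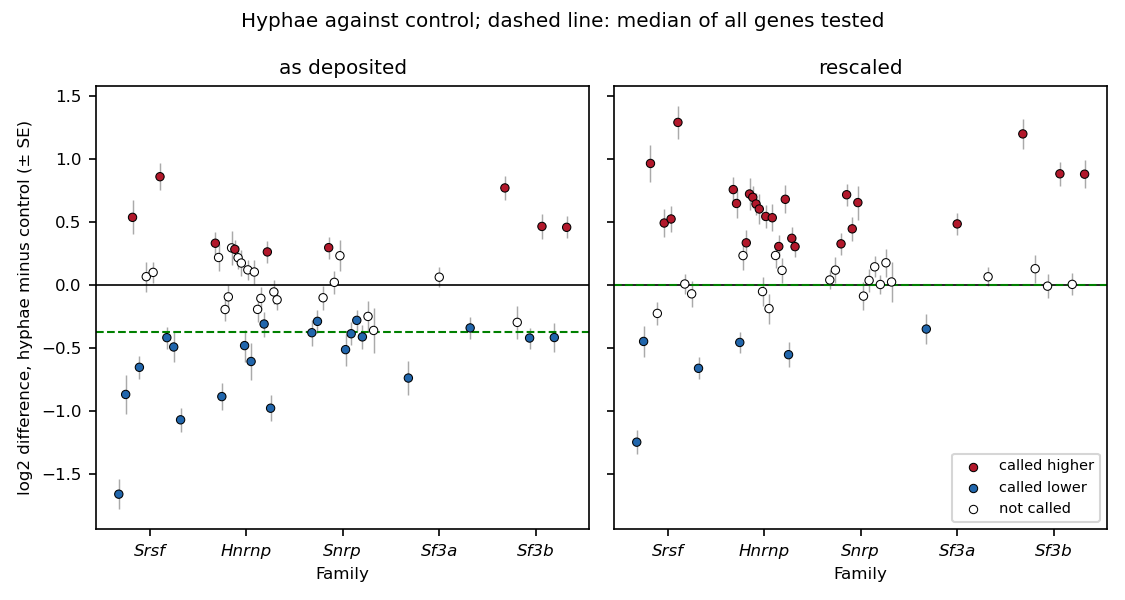
Log2 difference of each tested member between hyphae and control with its SE from limma (n = 3 libraries in each group), by family, as deposited (left) and after rescaling (right). Filled points were called higher (red) or lower (blue), open points were not called, and the dashed line is the median of all genes tested. Srsf1 is the lowest point and Srsf5 the highest in both panels.

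SR protein genes with changes under both scalings were found in each direction. As deposited, 2 of the 10 tested Srsf members rose (20%) and 6 fell (60%), while 14.9% of all genes rose and 50% fell. After rescaling 4 rose (40%) and 3 fell (30%), while 30% of all genes rose and 29.3% fell, so these shares were near those of all genes. Srsf1 encodes the founding member of the family, which acts in constitutive and alternative splicing. Its level was 16.7, 13.2 and 13.8 FPKM in hyphae libraries, against 46.9, 50.4 and 46.4 FPKM in control libraries. All hyphae libraries lay far below all control libraries. The ratio of group means was 0.304 as deposited and 0.409 after rescaling. The log2 difference was −1.66 (SE 0.12, adjusted p = 2.48e-05 in limma) as deposited and −1.24 (SE 0.10, adjusted p = 3.82e-05) after rescaling.

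Srsf5, the most abundant SR gene in these lungs, moved the other way. It stood at 482, 518 and 573 FPKM in hyphae libraries, against 299, 303 and 264 FPKM in control libraries, with no overlap. Its log2 difference was 0.86 (SE 0.11, adjusted p = 0.000203 in limma) as deposited and 1.29 (SE 0.13, adjusted p = 9.59e-05) after rescaling. Srsf11, an SR protein known to bind the 3′ splice site factor U2AF2, had 106, 117 and 135 FPKM in hyphae libraries, against 93.6, 82.5 and 70.4 FPKM in control libraries. These groups did not overlap, although hyphae replicate 1 and control replicate 1 lay close together. The Srsf11 log2 difference was 0.54 (SE 0.13) as deposited and 0.96 (SE 0.14) after rescaling.

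Srsf9, a small SR protein with a short arginine-serine tail, had 13.3, 12.8 and 11.3 FPKM in hyphae libraries, against 26.9, 29.6 and 25.2 FPKM in control libraries. Every hyphae value was below every control value. The log2 difference was −1.07 (SE 0.10) as deposited and −0.66 (SE 0.09) after rescaling. Srsf10, which represses splicing when it loses its phosphates, had 36.2, 26.8 and 25.5 FPKM in hyphae libraries, against 60.0, 56.5 and 46.4 FPKM in control libraries. The groups were separate, with wide spread inside each. The Srsf10 log2 difference was −0.87 (SE 0.15) as deposited and −0.45 (SE 0.12) after rescaling.

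The other 5 tested SR genes depended on the scaling. Srsf2, a protein of nuclear speckles, averaged 81.0 ± 4.06 FPKM in hyphae libraries and 128 ± 5.31 FPKM in control libraries (SD, n = 3 each). Srsf2, Srsf6 and Srsf7 were called lower as deposited, and after rescaling their log2 differences were −0.22, 0.01 and −0.07 and were not called. Srsf3 and Srsf4 were called higher only after rescaling, with log2 differences of 0.49 and 0.52.

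**Figure D3:**
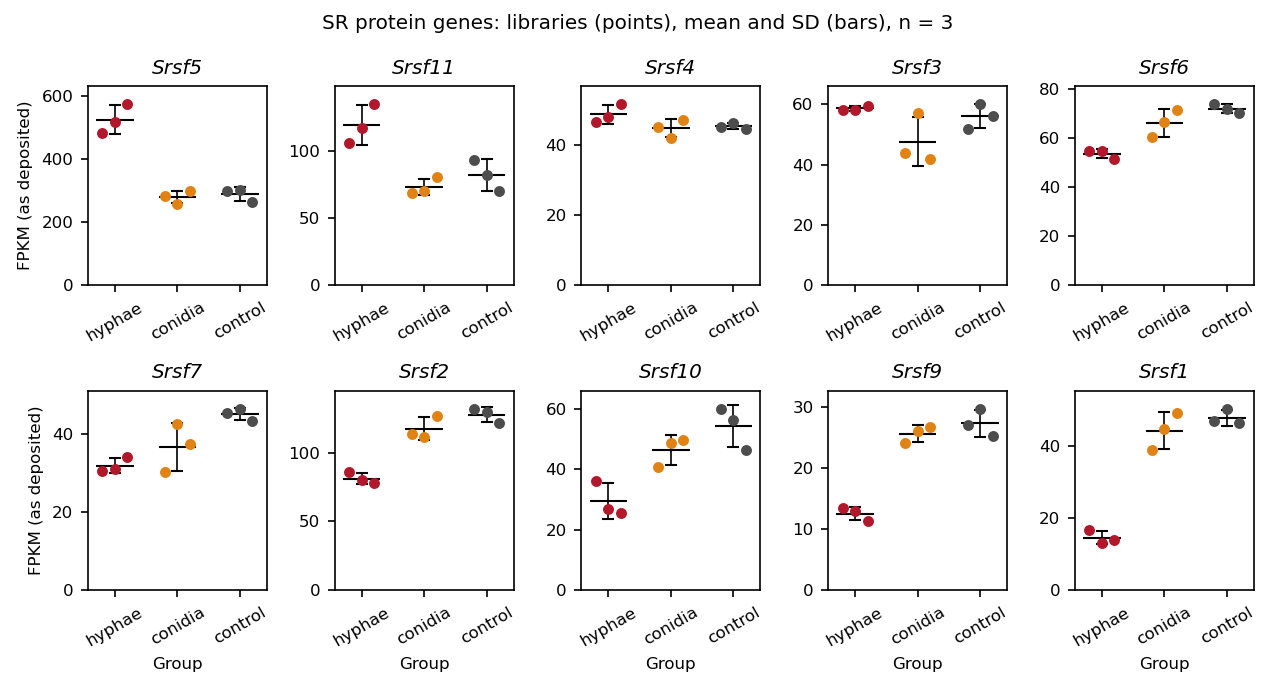
FPKM as deposited of the 10 tested Srsf genes in the hyphae, conidia and control libraries, with points for libraries and bars for the mean and SD (n = 3). Each panel has its own axis from 0. Srsf5 lies between 482 and 573 FPKM in hyphae libraries, against 264 to 303 in control, and Srsf1 between 13.2 and 16.7 against 46.4 to 50.4.

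Of the 20 tested Hnrnp members, 3 were higher (15%) and 5 lower (25%) as deposited, where all genes gave 14.9% and 50%. After rescaling 13 were higher (65%) and 2 lower (10%), where all genes gave 30% and 29.3%. Hnrnpu, a nuclear matrix protein that binds both RNA and DNA, had 53.0, 45.7 and 45.2 FPKM in hyphae libraries, against 95.4, 102 and 88.5 FPKM in control libraries. The hyphae values were all well below the control values. Its log2 difference was −0.97 (SE 0.10, adjusted p = 0.000106 in limma) as deposited and −0.55 (SE 0.10, adjusted p = 0.00148) after rescaling. Hnrnpa2b1, a reader of splicing and trafficking signals in RNA, had 119, 100.04 and 104 FPKM in hyphae libraries, against 202, 211 and 185 FPKM in control libraries. Again no library of one group reached the other. The Hnrnpa2b1 log2 difference was −0.88 (SE 0.11) as deposited and −0.45 (SE 0.08) after rescaling.

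The 3 Hnrnp genes that rose under both scalings rose by 0.26 to 0.33 on the log2 scale as deposited. Hnrnpa0, which binds AU-rich elements in the mRNAs of inflammatory mediators, had 65.6, 71.5 and 63.5 FPKM in hyphae libraries, against 52.8, 55.4 and 50.5 FPKM in control libraries. Its log2 difference was 0.33 (SE 0.09) as deposited and 0.76 (SE 0.10) after rescaling. Hnrnpd, also known as AUF1 and a decay factor for mRNAs with AU-rich elements, had 22.9, 22.6 and 22.0 FPKM in hyphae libraries, against 18.4, 19.0 and 17.6 FPKM in control libraries. Neither gene overlapped between the groups. Hnrnpr, a relative of the translation factor Syncrip, averaged 31.8 ± 1.41 FPKM in hyphae libraries and 26.4 ± 2.26 FPKM in control libraries (SD, n = 3 each). The log2 differences as deposited were 0.28 for Hnrnpd and 0.26 for Hnrnpr. The Hnrnpr call as deposited was lost in turn without hyphae replicate 2, hyphae replicate 3, control replicate 1 or control replicate 3.

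Hnrnpc and Hnrnpk are genes whose call depended on the scaling. Hnrnpc, which binds uridine tracts and competes with U2AF2 at 3′ splice sites, had 101, 103 and 121 FPKM in hyphae libraries, against 89.5, 90.4 and 84.0 FPKM in control libraries. The groups did not overlap, yet the log2 difference of 0.30 as deposited was not called (adjusted p = 0.0804 in limma), and the 0.72 after rescaling was. Hnrnpk, a poly(C)-binding protein and the most abundant Hnrnp gene, had 207, 203 and 178 FPKM in hyphae libraries, against 175, 191 and 181 FPKM in control libraries, so the groups overlapped. Its log2 difference was 0.10 as deposited, not called, and 0.53 after rescaling, called higher.

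Within subfamilies the members differed as well. Of the 4 genes for the H and F proteins, which bind runs of guanines, Hnrnph1 and Hnrnph3 were called lower as deposited. Hnrnpf and Hnrnph2 were called higher after rescaling. Of Hnrnpa0, Hnrnpa1, Hnrnpa2b1, Hnrnpa3 and Hnrnpab, 1 was called higher and 1 lower as deposited, and 3 higher and 1 lower after rescaling. Over all genes, 14.9% were called higher and 50% lower as deposited, and 30% and 29.3% after rescaling. The difference between Hnrnpa1 and Hnrnpa2b1, a pair of related splicing repressors, does not depend on the scaling. The ratio of Hnrnpa1 to Hnrnpa2b1 FPKM was 1.11, 1.23 and 1.08 in hyphae libraries, 0.784, 0.611 and 0.570 in conidia libraries and 0.522, 0.518 and 0.540 in control libraries.

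The Snrp genes stayed within a narrow range. Among 12 tested, 1 was called higher (8.33%) and 6 lower (50%) as deposited, where all genes gave 14.9% and 50%. After rescaling 4 were called higher (33.3%) and none lower, where all genes gave 30% and 29.3%. No Snrp gene reached a log2 difference of 1 in either direction, and no tested Hnrnp or Sf3a gene did so. The Snrp range was −0.51 to 0.30 as deposited and −0.09 to 0.72 after rescaling. Over all genes, 660 higher and 2323 lower calls reached that size as deposited, and 1270 and 1085 after rescaling. Of the 7 genes of the Sm ring (Snrpb, Snrpd1, Snrpd2, Snrpd3, Snrpe, Snrpf and Snrpg), 4 were called lower as deposited and 2, Snrpb and Snrpd1, were called higher after rescaling. Snrpb had 85.5, 82.1 and 78.4 FPKM in hyphae libraries, against 83.4, 88.5 and 92.1 FPKM in control libraries, and the groups overlapped. Its log2 difference changed sign, at −0.10 as deposited and 0.33 after rescaling.

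Snrpb2 encodes the B″ protein of the U2 snRNP and was the only Snrp gene to rise under both scalings. It had 35.2, 34.7 and 38.0 FPKM in hyphae libraries, against 28.4, 31.2 and 27.7 FPKM in control libraries, without overlap. Its log2 difference was 0.30 (SE 0.09, adjusted p = 0.0144 in limma) as deposited and 0.72 (SE 0.09, adjusted p = 0.00024) after rescaling. The call as deposited was lost without control replicate 3. Snrpd1 had 38.4, 38.7 and 52.2 FPKM in hyphae libraries, against 37.4, 37.8 and 33.3 FPKM in control libraries. The groups did not overlap but lay close together apart from hyphae replicate 3, and only the rescaled difference of 0.65 was called.

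The SF3b genes divided. Of the 6 genes, Sf3b1, Sf3b4 and Sf3b6 (50%) rose under both scalings, where 14.9% of all genes rose as deposited and 30% after rescaling. Sf3b3 and Sf3b5 were called lower as deposited, and Sf3b2 was not called. Sf3b1 encodes the large scaffold that clamps the branch point. It had 124, 146 and 139 FPKM in hyphae libraries, against 81.5, 81.7 and 75.1 FPKM in control libraries. The groups were far apart. The log2 difference was 0.77 (SE 0.10, adjusted p = 0.000228 in limma) as deposited and 1.20 (SE 0.12, adjusted p = 9.83e-05) after rescaling.

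Sf3b6, which touches the branch-point adenosine, had 40.2, 45.1 and 47.3 FPKM in hyphae libraries, against 30.6, 33.5 and 31.4 FPKM in control libraries. Sf3b4, an RNA-binding subunit that contacts RNA near the branch point, had 38.2, 36.5 and 30.4 FPKM in hyphae libraries, against 23.6, 25.7 and 25.6 FPKM in control libraries. In both genes all hyphae libraries were above all control libraries. The log2 difference was 0.46 for each as deposited and 0.88 for each after rescaling (SE 0.09 to 0.11). Sf3b3, a second large scaffold subunit, averaged 17.6 ± 0.845 FPKM in hyphae libraries and 23.8 ± 0.875 FPKM in control libraries (SD, n = 3 each). Its log2 difference was −0.42 as deposited, called lower, and −0.01 after rescaling.

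In SF3a, which joins the U2 snRNP with SF3b, Sf3a1 fell under both scalings. It had 8.89, 6.68 and 5.92 FPKM in hyphae libraries, against 11.5, 12.8 and 13.0 FPKM in control libraries, with no overlap. The log2 difference was −0.74 (SE 0.13) as deposited and −0.35 (SE 0.12, adjusted p = 0.0305 in limma) after rescaling. The rescaled call was lost in turn without hyphae replicate 2, hyphae replicate 3, control replicate 2 or control replicate 3. Sf3a2 had 45.2, 45.1 and 41.4 FPKM in hyphae libraries, against 41.0, 44.2 and 40.6 FPKM in control libraries, and the groups overlapped as deposited. It was called higher only after rescaling, at 0.49.

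A share within a family, or a ratio of a pair of members, is the same under any scaling of a library. Shares are fractions of summed FPKM, and the genes shown here were chosen after their values were seen. Srsf5 made up 51.9, 54.0 and 55.5% of summed Srsf FPKM in hyphae libraries, 37.8, 33.6 and 35.9% in conidia libraries and 34.2, 34.5 and 33.5% in control libraries. Srsf1 made up 1.80, 1.37 and 1.34% in hyphae libraries, 5.19, 5.84 and 5.95% in conidia libraries and 5.35, 5.75 and 5.89% in control libraries. The hyphae libraries stood outside the range of the other 6 libraries for both genes. The ratio of Srsf5 to Srsf1 was therefore 28.8, 39.3 and 41.6 in hyphae libraries, 7.27, 5.76 and 6.03 in conidia libraries and 6.39, 6.01 and 5.69 in control libraries.

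A share can fall because another gene in the sum rises, so Srsf1 was also set against the Srsf sum without Srsf5. It made up 2.99 to 3.73% of that sum in hyphae libraries, 8.34 to 9.29% in conidia libraries and 8.14 to 8.85% in control libraries, and the hyphae libraries stood apart here too.

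Srsf2 held 8.34 ± 0.841% of the Srsf sum in hyphae libraries, 15.0 ± 0.443% in conidia libraries and 15.1 ± 0.318% in control libraries (SD, n = 3 each). With Srsf5 left out of the sum, the Srsf2 share was 19.1, 18.1 and 16.9% in hyphae libraries, 24.4, 21.8 and 23.9% in conidia libraries and 22.9, 22.6 and 23.2% in control libraries, a smaller gap, and Srsf2 itself was not called after rescaling. Sf3b1 held 36.7, 43.7 and 43.2% of the Sf3b sum in hyphae libraries, 28.5, 27.1 and 29.5% in conidia libraries and 28.7, 28.2 and 27.1% in control libraries. The ratio of Sf3b1 to Sf3b3 was 6.72, 8.65 and 8.04 in hyphae libraries, 2.97, 3.27 and 3.71 in conidia libraries and 3.40, 3.32 and 3.29 in control libraries. Hnrnpu held 3.02 ± 0.164% of the Hnrnp sum in hyphae libraries, 5.80 ± 0.429% in conidia libraries and 5.47 ± 0.155% in control libraries. For each of these measures the hyphae libraries lay apart from all conidia and control libraries. Such separation was common and not particular to the genes shown. Between hyphae and control, the shares did not overlap for any tested Srsf gene except Srsf3. They did not overlap for any Sf3b gene or for most tested Hnrnp genes either.

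Sums over a family rested on their most abundant genes. Summed Srsf FPKM was 931, 960 and 1034 in hyphae libraries, 749, 767 and 829 in conidia libraries and 875, 876 and 788 in control libraries as deposited. Without Srsf5 the order turned round as deposited, with 448, 442 and 461 FPKM in hyphae libraries. The conidia libraries then had 466, 510 and 531 FPKM and the control libraries 576, 573 and 524 FPKM. This reversal depended on the scaling, as the hyphae libraries were not lowest in this sum after rescaling. Summed Sf3b FPKM was 338, 334 and 321 in hyphae libraries, 274, 282 and 296 in conidia libraries and 284, 290.1 and 277 in control libraries. Summed Snrp FPKM was 488, 458 and 482 in hyphae libraries, 489, 556 and 540.0 in conidia libraries and 541, 556 and 533 in control libraries. The Snrp sum was lowest in the hyphae libraries as deposited and highest there after rescaling, at 547 to 589 against 468 to 493 in control libraries.

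**Figure D4:**
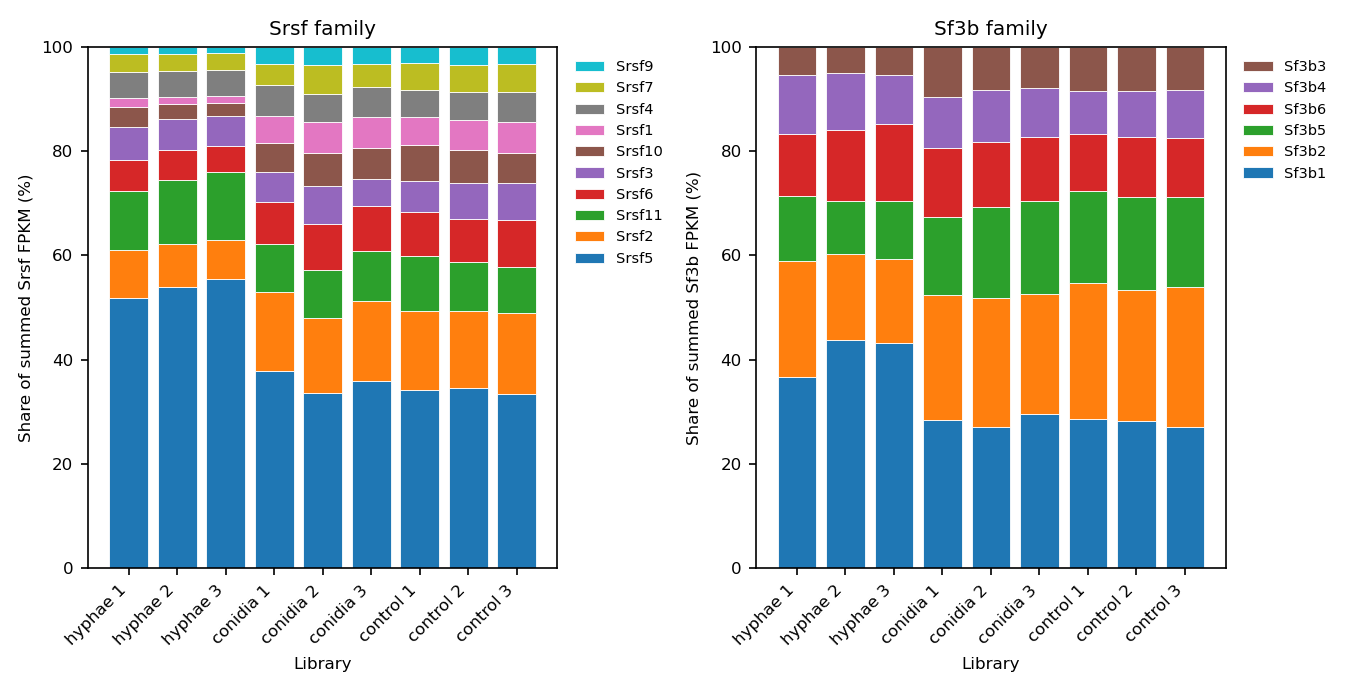
Stacked bars of each tested gene's share (%) of the summed FPKM of the Srsf family (left) and the Sf3b family (right) in each of the 9 libraries. The lowest segment is Srsf5 on the left, at 51.9 to 55.5% in hyphae libraries against 33.5 to 37.8% in the others, and Sf3b1 on the right, at 36.7 to 43.7% against 27.1 to 29.5%.

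After conidia, no member was called against control under either scaling. In limma, 0 of 51 members passed an adjusted p of 0.05, where 0.69% of all genes were called as deposited and 0.342% after rescaling. At an unadjusted p under 0.05 there were 4 members as deposited (7.84%) and 7 after rescaling (13.7%), against 21.1% and 21.2% of all genes. The log2 differences ran from −0.45 to 0.19 as deposited and from −0.36 to 0.28 after rescaling. Hnrnph3 was at the low end of both ranges, at 22.8, 32.7 and 33.5 FPKM in conidia libraries, against 40.0, 42.1 and 38.9 FPKM in control libraries. The groups did not overlap, and its adjusted p was 0.14 as deposited and 0.157 after rescaling.

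Of the genes that moved most in hyphae lungs, Srsf1, Srsf5 and Sf3b1 were near control in conidia lungs. Srsf1 had 38.9, 44.8 and 49.3 FPKM in conidia libraries, against 46.9, 50.4 and 46.4 FPKM in control libraries. Srsf5 had 283, 258 and 298 FPKM in conidia libraries, against 299, 303 and 264 FPKM in control libraries. Sf3b1 had 78.2, 76.3 and 87.6 FPKM in conidia libraries, against 81.5, 81.7 and 75.1 FPKM in control libraries. In all 3 genes the groups overlapped. Among the genes called under both scalings in hyphae lungs, Hnrnpa2b1, Sf3b4 and Sf3b6 did not overlap control after conidia as deposited. Hnrnpa2b1 was lower, at 160 to 182 FPKM against 185 to 211 FPKM, and overlapped after rescaling. Sf3b4 and Sf3b6 were higher without overlap under both scalings. None of these genes was called after conidia, and the rest overlapped. As deposited, 12 of 51 members had conidia and control libraries that did not overlap (5 higher and 7 lower), while 29.8% of all genes did, 12% higher and 17.8% lower. After rescaling the balance was 9 higher and 2 lower, while 29.7% of all genes did not overlap, 16.4% higher and 13.3% lower. Without conidia replicate 2, Srsf3 was called lower as deposited. Its values were 43.8, 57.0 and 42.0 FPKM in conidia libraries, against 52.0, 60.1 and 56.1 FPKM in control libraries, and replicate 2 was the high one. This library stood apart from the other conidia libraries. Its neutrophil markers summed to 2139 FPKM, against 12820 and 8162 FPKM in conidia replicates 1 and 3, and its NK cell markers to 53.5 FPKM, against 9.42 and 11.0 FPKM. Over all genes, 657 were called higher and 878 lower without it as deposited, and 887 and 540 after rescaling. Leaving out any other conidia or control library gave 0 or 1 called gene, so the count of calls after conidia rests on which libraries are included. The part of this library in the result for the members was not tested beyond leaving it out.

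Lungs given hyphae also differed from lungs given conidia, with Srsf5, Srsf11 and Sf3b1 higher and Srsf1, Srsf9 and Hnrnpu lower. As deposited, 29 members were called (11 higher and 18 lower), while 55.2% of all genes were called, 12.7% higher and 42.5% lower. After rescaling, 27 were called (22 higher and 5 lower), against 50.8% of all genes, 25.4% in each direction. Without hyphae replicate 3 the count of lower members as deposited was 11, and that of all genes was 4924, against 5847 with it. Members that rose under both scalings were Srsf5, Srsf11, Hnrnpa0, Hnrnpc, Hnrnpd, Hnrnpdl, Hnrnpr, Snrpb2, Sf3b1, Sf3b4 and Sf3b6. Members that fell under both were Srsf1, Srsf9, Hnrnpa2b1, Hnrnpu and Sf3a1. This comparison shares its hyphae libraries with the comparison against control, so the lists are not independent.

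The sizes of these differences were as follows. Srsf1 differed by −1.54 on the log2 scale as deposited (adjusted p = 4.58e-05 in limma) and by −1.23 after rescaling. Srsf5 differed by 0.91 and 1.24, and Sf3b1 by 0.75 and 1.08. Hnrnpu differed by −1.01 and −0.68, with 53.0, 45.7 and 45.2 FPKM in hyphae libraries, against 93.2, 92.4 and 107 FPKM in conidia libraries. Hnrnpc, with 101, 103 and 121 FPKM in hyphae libraries, against 68.5, 92.1 and 67.3 FPKM in conidia libraries, differed by 0.52 and 0.85 and was called under both scalings. Its groups did not overlap, though conidia replicate 2 came close. Srsf10 was called lower as deposited, at −0.65, and not after rescaling, at −0.32.

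Other genes of the splicing machinery were read from 10 lists without any member (187 tested genes in all). Between hyphae and control, 42 of them were called higher and 89 lower as deposited, while 88 were higher and 42 lower after rescaling. These are 22.5% and 47.6%, where all genes gave 14.9% and 50%, and 47.1% and 22.5%, where all genes gave 30% and 29.3%. The lists together had median log2 differences of −0.22 and 0.20. Between conidia and control, 0 were called under either scaling. SR-like and SR-related proteins (26 genes) had the highest median, 0.17 as deposited and 0.58 after rescaling, with 9 rising and 6 falling as deposited and 19 rising and 4 falling after rescaling. LSm proteins, some of which form the ring of the U6 snRNP, and the factors that assemble Sm rings had low medians, −0.52 and −0.63 as deposited and −0.15 and −0.26 after rescaling. The 13 LSm genes gave 1 higher and 10 lower calls as deposited, with 3 and 5 after rescaling. The 14 assembly genes gave 1 and 10 as deposited, with 4 and 7 after rescaling.

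Among the 11 genes of 3′ splice site recognition, partners of SF3b, 5 were called higher and 2 lower as deposited. The counts were 8 and 0 after rescaling. These are 45.5% and 18.2%, then 72.7% and 0%, where all genes gave 14.9% and 50%, then 30% and 29.3%. Smndc1, a Tudor domain protein of the U2 snRNP, had 48.6, 54.5 and 56.8 FPKM in hyphae libraries, against 24.3, 25.6 and 24.0 FPKM in control libraries. Among 11 genes for kinases and other regulators of SR proteins, 1 was higher and 7 lower as deposited. After rescaling 3 were higher and 3 lower. These are 9.09% and 63.6%, then 27.3% in each direction, against the same shares of all genes. Srpk1, which phosphorylates SR proteins in the cytoplasm, had 9.64, 8.74 and 8.41 FPKM in hyphae libraries, against 20.6, 18.5 and 17.3 FPKM in control libraries. The groups did not overlap for either gene, and both were called under both scalings. Luc7l3, a U1-associated protein with an arginine-serine tail, fell by 1.84 on the log2 scale as deposited and by 1.42 after rescaling. Tia1, a U1 recruiter that also forms stress granules, fell by 1.99 and 1.61.

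The largest rise after rescaling and, where a gene fell, the largest fall in each list were called under both scalings. The rises included Usp39, a U4/U6.U5 snRNP protein, at 1.02 on the log2 scale as deposited and 1.44 after rescaling, and Dhx38, a helicase of the second step of splicing, at 1.05 and 1.45. Ptbp2, a polypyrimidine tract binder best known from neurons, rose by 0.98 and 1.39. Magoh, of the exon junction complex, rose by 0.80 and 1.23, and Nktr, a cyclophilin with an arginine-serine tail, by 0.89 and 1.31. Smaller rises were those of Strap at 0.65 and 1.07, Dyrk1a at 0.49 and 0.90, Ybx3 at 0.46 and 0.89 and Lsm14a at 0.29 and 0.71. The falls were those of Prpf40b by 1.48 and 1.09, Gemin8, of the SMN complex, by 1.46 and 1.18, Fubp1 by 1.28 and 0.88, Lsm2 by 1.16 and 0.77 and Zmat5, of the minor spliceosome, by 0.94 and 0.53.

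In the remaining lists, too, the balance of calls depended on the scaling, as it did over all genes (14.9% higher and 50% lower as deposited, 30% and 29.3% after rescaling). The 17 Snrnp and related genes gave 2 higher and 10 lower calls as deposited, against 5 and 3 after rescaling. The 30 Prp factors and helicases gave 8 and 15, against 15 and 6. The 16 genes of the exon junction complex and nonsense-mediated decay gave 6 and 7, against 8 and 0. The 28 tissue splicing regulators gave 7 and 13, against 13 and 8, and the 22 hnRNP-associated and paraspeckle genes gave 2 and 10, against 10 and 6.

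Many members have transcripts that are not translated into full proteins. In GENCODE release M21, 24 of the 51 tested members (47.1%) have an annotated transcript marked for nonsense-mediated decay, against 27.5% of the 13580 tested genes found there. For Srsf genes it is 9 of 10. A transcript with a retained intron is annotated for 38 members (74.5%), against 57.2% of tested genes. The deposited values are given per gene and not per transcript, and whether they include such forms is not known. From these values a change in the share of such forms cannot be told apart from a change in the coding mRNA.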

How the data were processed

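The authors deposited FPKM values per gene, 1 file per library, per the file headers. The submitters' processing notes name HISAT, Bowtie2 and mm9, with no version or role. Which program made the FPKM table is not given in the sources. Read counts are not in the files used, so depth is unknown and no counting intervals are given. Values were transformed to log2(FPKM + 1), which understates changes of low genes. A gene needed 1 FPKM or more in 3 or more libraries. The 13761 such genes were tested with limma 3.58.1 in R 4.3.3 (trend and robust moderation), in 1 fit of 9 libraries without covariates, two-sided, with Benjamini-Hochberg adjustment over all genes and a call at an adjusted p under 0.05. The fit was repeated after dividing each library by its median-of-ratios factor (15897 genes above 0 in all libraries). The script was tested on simulated data. An exact permutation test of 3 against 3 libraries cannot go below p = 0.1.

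Named genes are, per family, the 2 largest rises and falls among those called after rescaling in hyphae against control, the most abundant member and, in each splicing list, the largest rise and fall. Hnrnpd, Hnrnpr, Sf3b6, Srsf10 and the genes described only by counts or shares were added after their values were seen. The members and lists were chosen with earlier results of these data known. Replicate numbers were not used to pair libraries in the main fit. Promoters come from RefSeq (GRCm38.p6) and transcript classes from GENCODE M21, both of another build than mm9, so no coordinate from the files was used. Alternatives were other scalings, pseudocounts, filters, moderation, the 2 groups alone, a replicate block and each library left out.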

Additional observations from a re-analysis of the deposited data

How the results depend on the processing

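Both the scaling and the libraries included moved the counts of called members. Between hyphae and control, 25 members were higher and 6 lower after median-of-ratios rescaling, and 20 and 8 after upper-quartile rescaling, against 9 and 21 as deposited. Between hyphae and conidia the counts were 22 and 5, and 17 and 8, against 11 and 18. Over all 13761 genes tested, counts between hyphae and control were 4132 and 4035, and 3155 and 5156, against 2045 and 6886. Between hyphae and conidia they were 3496 and 3492, and 2800 and 4185, against 1752 and 5847. The log2 difference of Snrpb between hyphae and control changed sign to 0.33 and 0.14 under these scalings, and between hyphae and conidia to 0.27 and 0.16. That of Sf3a2 between hyphae and conidia changed sign to 0.201 and 0.092. The scaling itself shifts all genes, so these changes follow from its construction.

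With 1 library left out in turn, counts between hyphae and control ran from 7 to 10 higher and 18 to 22 lower as deposited, and from 23 to 25 and 5 to 7 after rescaling. Between hyphae and conidia they ran from 8 to 11 higher and 11 to 20 lower as deposited, and from 17 to 21 and 4 to 6 after rescaling. Between conidia and control they were 0 higher and 0 to 1 lower as deposited, and 0 in each direction after rescaling. Over all genes tested, counts between hyphae and control ran from 1682 to 2078 higher and 5997 to 6969 lower as deposited. After rescaling they ran from 3443 to 4179 and from 3415 to 4121. Between hyphae and conidia the all-gene counts ran from 1339 to 1739 and from 4619 to 6183 as deposited. After rescaling these ran from 2691 to 3571 and from 2707 to 3807. Srsf1, Srsf5, Srsf9, Srsf10, Srsf11, Hnrnpa0, Hnrnpd, Hnrnpu, Hnrnpa2b1, Sf3b1, Sf3b4 and Sf3b6 were called between hyphae and control in 9 of 9 such fits under both scalings.

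With the replicate number as a block, hyphae against control gave 9 higher and 21 lower members as deposited, and 25 and 5 after rescaling. Hyphae against conidia gave 11 and 14, and 20 and 4, and conidia against control gave 0. Over all genes, the block gave 1925 and 6637, and 3954 and 3904, between hyphae and control. Between hyphae and conidia it gave 1629 and 5529, and 3252 and 3316, genes. The rescaled call of Sf3a1 was lost with the block, at an adjusted p of 0.0523 in limma between hyphae and control and of 0.0547 between hyphae and conidia. Same-numbered libraries had correlations of their deviations from the group means between −0.31 and 0.43. Those of differently numbered libraries lay between −0.54 and 0.30. With 3 libraries per group, these values cannot settle whether the number pairs libraries. A fit of the 2 groups alone after rescaling, added after the data were seen, gave 25 and 5 between hyphae and control and 17 and 4 between hyphae and conidia. Over all genes this fit of 2 groups gave 4062 and 3873, and 3087 and 3061. Depth is unknown, and 3 libraries per group limit the precision.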
